A study of Mus musculus with 4 samples.

Results

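The genes described here make or sense the prostaglandins and leukotrienes in mouse Th2 cells, the helper T cells of allergic inflammation. They are 10 genes chosen by name, of 18539 genes that could be named on the array: the receptors Ptgdr2 (also written Gpr44), Ptger2, Ptger4, Ptgir and Ltb4r1, the cyclooxygenases Ptgs1 and Ptgs2, the prostaglandin D synthase Hpgds, the 5-lipoxygenase Alox5 and its activating protein Alox5ap. They were measured by 15 probes, 4 of the genes by more than 1, and all 10 were well above background on at least 1 array.

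Both families of lipids start from arachidonic acid. Cyclooxygenases turn it into prostaglandin H2, from which terminal synthases make prostaglandin D2, prostaglandin E2, prostacyclin and thromboxane. 5-Lipoxygenase, helped by the membrane protein that Alox5ap encodes, turns arachidonic acid into leukotriene A4, the precursor of leukotriene B4 and the cysteinyl leukotrienes, and each product acts on its own G protein-coupled receptors, several of which T cells carry.

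SH-2251 is a thioamide-related small compound, and the series compared Th2 cells cultured with it or without it, either resting or restimulated through the T cell receptor. CD4 T cells from the spleen of female C57BL/6J mice were first activated for 2 days by plate-bound anti-TCR-β antibody at 3 µg/ml and anti-CD28 antibody at 1 µg/ml, with IL-2 at 2.5 ng/ml and IL-4 at 10 ng/ml. They were then kept for 3 days in the same cytokines. Restimulation was 4 h on immobilized anti-TCR-β antibody. All 4 conditions, controls included, share the 2 cytokines and the first stimulation.

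For the dose of SH-2251 the labels give 1 µM in the first phase and 1 mM in the second, whereas the study's methods give a lower dose unless another is mentioned and start from naïve cells with an antibody to interferon-γ added. The dose on these arrays was therefore not settled. Each of the 4 conditions was measured on 1 single-dye Agilent array, so the differences below have no replicate check and carry no test. The arrays lay on 1 slide and were read in 1 scan, no spot was saturated, and the share of probes called well above background ran from 56.0% to 56.7%. Precision is limited by the number of arrays.

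A level below is the log2 intensity of a probe minus the 75th percentile of all probes on its array, which lay between 499 and 614 intensity units. Levels of different genes come from different probes and are not set against each other. A difference is SH-2251 minus control, or restimulated minus resting, on the same log2 scale. The SD beside a level or a difference is the scanner software's technical error for the spots (n = 1 array in each condition), and does not include the spread between cultures.

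The label of the cells was checked against markers. All 6 T cell markers and all 8 Th2 markers were well above background on the 4 arrays. The summed signal of the Th2 markers, in units of the 75th percentile, was lower with SH-2251. It was 72.5 beside 88.7 in resting and 351 beside 479 in restimulated cells. Il5, Il1rl1, Il13 and Maf were lower with SH-2251 in both states, and Il4 and Gata3 were lower by less. Ccr8 was higher in both, whereas Ccr4 was slightly lower in resting and higher in restimulated cells. Of other cells known to use these lipids, none of the 3 eosinophil markers measured was well above background on any array. The same held for the mast cell and basophil genes Mcpt8, Ms4a2, Mcpt4, Tpsb2 and Gata2, the macrophage genes Lyz2, C1qa and Itgam, the B cell gene Pax5 and the platelet genes Pf4, Ppbp and Gp9. Signal of other markers was present: 5 of 6 B cell markers and 4 of 7 macrophage and monocyte markers were well above background on every array. So were the mast cell and basophil genes Cpa3 and Hdc, the platelet gene Gp1bb and the dendritic cell genes Flt3, Zbtb46 and Xcr1. Cd8a and Klrd1, from the list for CD8 T and NK cells, were above it on every array too.

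The stretches around the start sites of 4 genes are shown because their levels moved the most: Ptgs2 and Ptger2 with restimulation, Ltb4r1 and Ptger4 with SH-2251. Each runs 5′ to 3′ on the strand of the gene, from 250 bases before the start site through the first 30 transcribed bases, and comes from RefSeq on build GRCm38.p6, whose promoter table held 9 of the 10 genes. Capitals mark matches, on either strand, to an AP-1 site (TGANTCA), a CRE (ACGTCA), an E-box (CACGTG), an NFAT core (GGAAA) or a GC box (GGGCGG). Ptgs2 lies on the plus strand at chr1:150099781-150100060, Ptger2 on the plus strand at chr14:44987861-44988140, Ptger4 on the minus strand at chr15:5244158-5244437 and Ltb4r1 on the plus strand at chr14:55765712-55765991.
Ptgs2: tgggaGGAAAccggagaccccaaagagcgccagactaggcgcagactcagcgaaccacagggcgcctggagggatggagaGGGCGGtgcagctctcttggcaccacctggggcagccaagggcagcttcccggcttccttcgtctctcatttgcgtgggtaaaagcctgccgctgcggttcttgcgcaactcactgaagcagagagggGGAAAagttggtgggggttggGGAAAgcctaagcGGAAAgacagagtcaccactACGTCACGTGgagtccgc
Ptger2: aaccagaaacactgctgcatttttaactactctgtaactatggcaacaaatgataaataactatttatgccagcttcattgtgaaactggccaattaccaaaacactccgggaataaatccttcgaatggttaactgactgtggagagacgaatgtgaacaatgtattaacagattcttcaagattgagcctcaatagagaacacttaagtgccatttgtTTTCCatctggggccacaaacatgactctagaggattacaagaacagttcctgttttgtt
Ptger4: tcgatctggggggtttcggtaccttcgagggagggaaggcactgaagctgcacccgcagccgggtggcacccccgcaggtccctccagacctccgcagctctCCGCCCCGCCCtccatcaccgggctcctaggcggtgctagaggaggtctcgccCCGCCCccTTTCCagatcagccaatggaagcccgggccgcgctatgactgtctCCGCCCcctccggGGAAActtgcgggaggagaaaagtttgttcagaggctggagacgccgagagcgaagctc
Ltb4r1: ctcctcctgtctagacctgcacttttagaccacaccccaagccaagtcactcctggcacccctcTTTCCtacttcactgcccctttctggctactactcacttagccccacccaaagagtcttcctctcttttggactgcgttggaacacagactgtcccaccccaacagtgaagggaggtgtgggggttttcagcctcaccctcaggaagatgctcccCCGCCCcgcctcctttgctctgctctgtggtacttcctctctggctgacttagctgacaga

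The window of Ptgs2 held 4 matches to the NFAT core, starting at bases -245, -42, -21 and -8, and a GC box at -170, counted from the start site. Its CRE at base 13 and its E-box at base 17 overlap. Of 32851 windows of the same length, 7.26% held the CRE letters and 6.79% the E-box letters, and among the 9 genes with a window the Ptgs2 window alone held either. The NFAT core was present in 6 of the 9 windows and in 59.2% of all windows, and the GC box in 6 of 9 and in 34.7%. None of the 9 windows held the AP-1 letters, which 7.46% of all windows did. The window of Ptger2 held 1 match, an NFAT core at -30. A match is a description of the letters in the window, and no binding was measured here.

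The levels of the 10 genes on each array are plotted next. The values then follow gene by gene, receptors first.

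**Figure D1:**
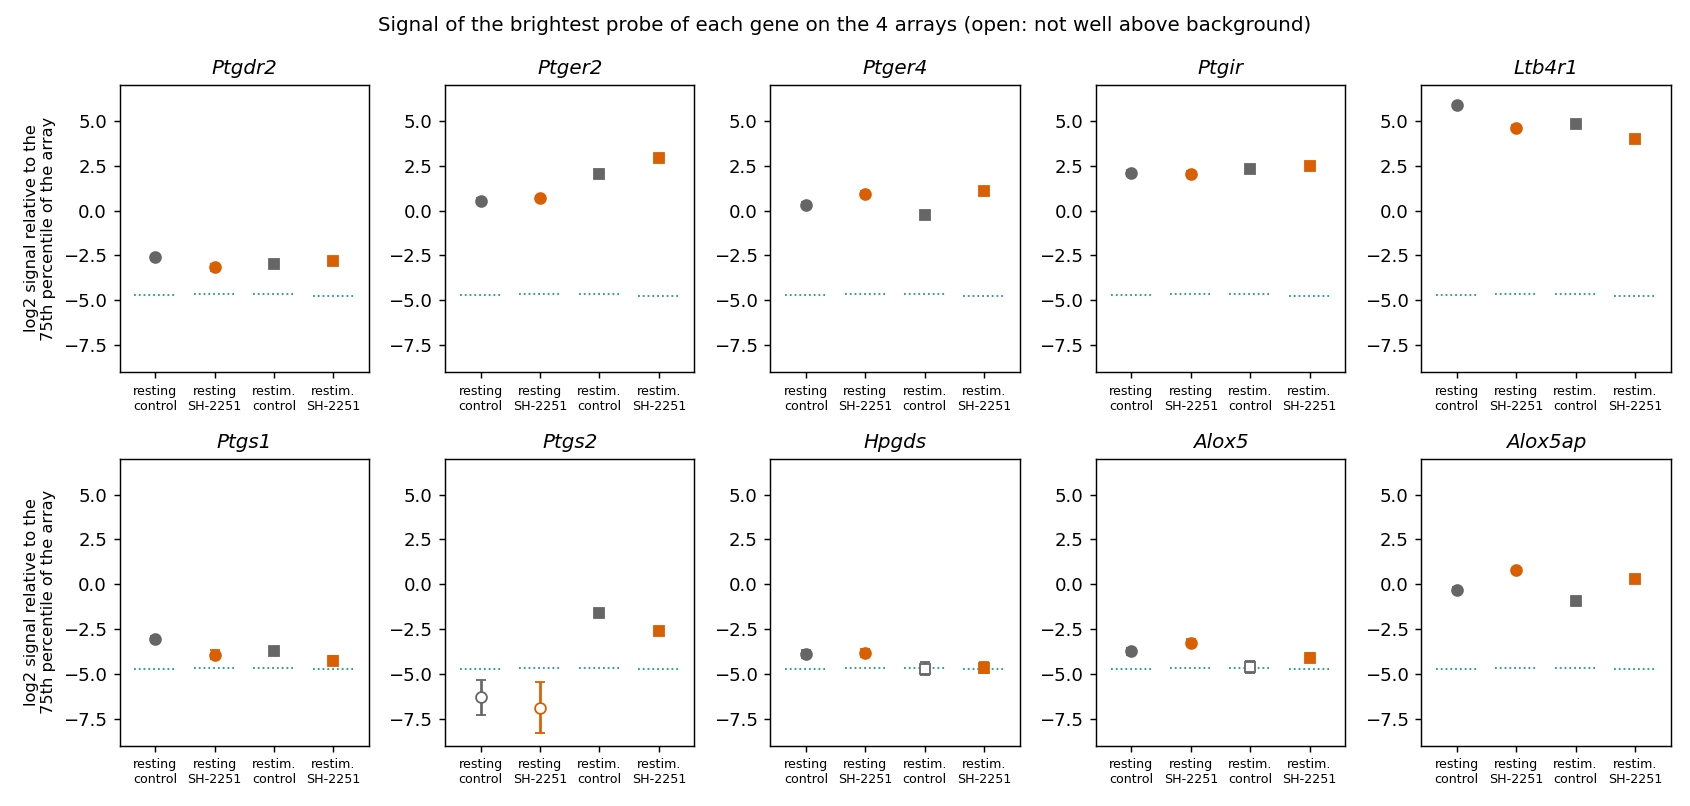
Levels of the 10 genes, as log2 signal of the brightest probe minus the array's 75th percentile, on the resting (circles) and restimulated (squares) arrays of control (grey) and SH-2251-treated (orange) cells. Bars are the technical SD of the scanner software, open symbols are probes not well above background, and dotted lines mark the dimmest signal well above background on that array; Ptgs2 lies below that line on both resting arrays, at -6.30 and -6.87, and above it on both restimulated arrays, at -1.62 and -2.58.

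Ltb4r1 encodes BLT1, the high-affinity receptor for leukotriene B4, which guides activated T cells and granulocytes to inflamed tissue. Its level was 5.87 in resting control cells, 4.62 in resting SH-2251-treated cells, 4.83 in restimulated control cells and 3.96 in restimulated SH-2251-treated cells. It was thus highest in resting control cells and lowest in cells that had both SH-2251 and restimulation, and the 2 levels between those, in resting SH-2251-treated and restimulated control cells, lay within the technical SD of each other.

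With SH-2251, the Ltb4r1 level was lower by 2.38-fold in resting cells (log2 difference -1.25, technical SD 0.204) and by 1.82-fold in restimulated cells (-0.87, technical SD 0.204). Counted from the lowest, the resting difference ranked 239 of 12683 genes. With restimulation, the level was lower by 2.07-fold in control cells (-1.05) and by 1.58-fold in SH-2251-treated cells (-0.66). The control value lay at the 2-fold line and was -0.99 with another background correction (normexp), with or without the spots whose local background the software marked as uneven. There were 12 such spots on the resting SH-2251 array and 0 to 2 on each of the others. In these bulk cultures fewer cells of a type and less RNA per cell cannot be told apart, here and for every gene below.

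The genes beside Ltb4r1 on the chromosome were looked at as well. Ltb4r2, which encodes the low-affinity receptor for leukotriene B4 and lies next to it, and Cideb stayed near background on all 4 arrays. The level of Adcy4, the neighbour that was measured, was -3.45 in resting control, -3.91 in resting SH-2251-treated, -2.30 in restimulated control and -3.94 in restimulated SH-2251-treated cells, so that it was lower with SH-2251 in both states, as Ltb4r1 was, but highest in the restimulated control cells.

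Ptger4 encodes EP4, a receptor for prostaglandin E2 that raises cyclic AMP. Its level was 0.32 in resting control, 0.94 in resting SH-2251-treated, -0.26 in restimulated control and 1.08 in restimulated SH-2251-treated cells. Both cultures with SH-2251 were above both controls, and the 2 SH-2251 levels lay within the technical SD of each other. The SH-2251 difference was 0.62 in resting cells (1.54-fold, technical SD 0.204) and 1.35 in restimulated cells (2.54-fold, technical SD 0.205), the latter ranking 158 of 12622 genes from the highest. Restimulation went with a lower level in control cells (-0.58, technical SD 0.205) and with a difference of 0.14 in SH-2251-treated cells, inside the technical SD.

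Ptger2 encodes EP2, the other receptor for prostaglandin E2 that raises cyclic AMP. Its level was 0.55 in resting control, 0.67 in resting SH-2251-treated, 2.02 in restimulated control and 2.91 in restimulated SH-2251-treated cells. Both restimulated cultures were above both resting ones. Restimulation went with a 2.77-fold higher level in control cells (log2 difference 1.47, technical SD 0.204) and a 4.72-fold higher level in SH-2251-treated cells (2.24, technical SD 0.204). With SH-2251 the level differed by 0.12 in resting cells, inside the technical SD of 0.204, and by 0.89 (1.85-fold) in restimulated cells, short of 2-fold.

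For both receptors of prostaglandin E2 the SH-2251 difference was larger in the restimulated than in the resting cells, by 0.77 for Ptger2 and by 0.72 for Ptger4 (technical SD 0.289 for each). This was not particular to them. The SH-2251 difference also lay higher in restimulated than in resting cells for Ptgdr2, by 0.71 (technical SD 0.34), and for Cysltr2, by 0.74 (technical SD 0.298). With 1 array per condition none of these shifts was tested. Among the other receptors of this lipid, Ptger1 had no probe that could be named, and Ptger3, the receptor that lowers cyclic AMP, was dim: its level was -3.23 in resting control, -3.92 in resting SH-2251-treated and -4.17 in restimulated control cells, and it was not well above background in restimulated SH-2251-treated cells.

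Ptgir encodes the prostacyclin receptor. Its level was 2.11 in resting control, 2.06 in resting SH-2251-treated, 2.34 in restimulated control and 2.48 in restimulated SH-2251-treated cells. These levels were close, and the SH-2251 differences of -0.05 and 0.14 lay inside the technical SD of 0.204. With restimulation the differences were 0.23 without and 0.41 with SH-2251, both beyond it. A second, dimmer probe for Ptgir was well above background on all 4 arrays, and its differences were all between -0.22 and 0.27.

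Ptgdr2 encodes CRTH2, the receptor through which prostaglandin D2 attracts Th2 cells, eosinophils and basophils, and a common surface marker of Th2 cells in humans. Its level was -2.62 in resting control, -3.17 in resting SH-2251-treated, -2.98 in restimulated control and -2.82 in restimulated SH-2251-treated cells. No difference reached 2-fold. SH-2251 went with a lower level in resting cells (-0.55, technical SD 0.239) and with 0.16 in restimulated cells, inside the technical SD of 0.237, and restimulation with -0.36 in control cells and 0.35 in SH-2251-treated cells. The resting SH-2251 difference turned to 0.40 after the normexp correction on all spots, and was -0.32 after normexp without the spots of uneven background. A second Ptgdr2 probe never stood well above background, nor did Ptgdr, the other receptor for prostaglandin D2.

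The differences with SH-2251 are drawn next for all members. In resting cells 2 of the 9 measured members (22.2%) were at least 2-fold apart, Alox5ap higher and Ltb4r1 lower, beside 5.12% of the 12683 genes compared (2.22% higher and 2.90% lower). In restimulated cells these were 2 of 10 (20.0%), Alox5ap and Ptger4, both higher, beside 5.43% of 12622 genes (2.65% higher and 2.78% lower). The median difference over the measured members was 0.05 in resting and 0.15 in restimulated cells, beside -0.06 over all genes in each state. Those shares rest on 2 genes in each state, and the members were proposed with results of these data known, so they are given as a description.

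**Figure D2:**
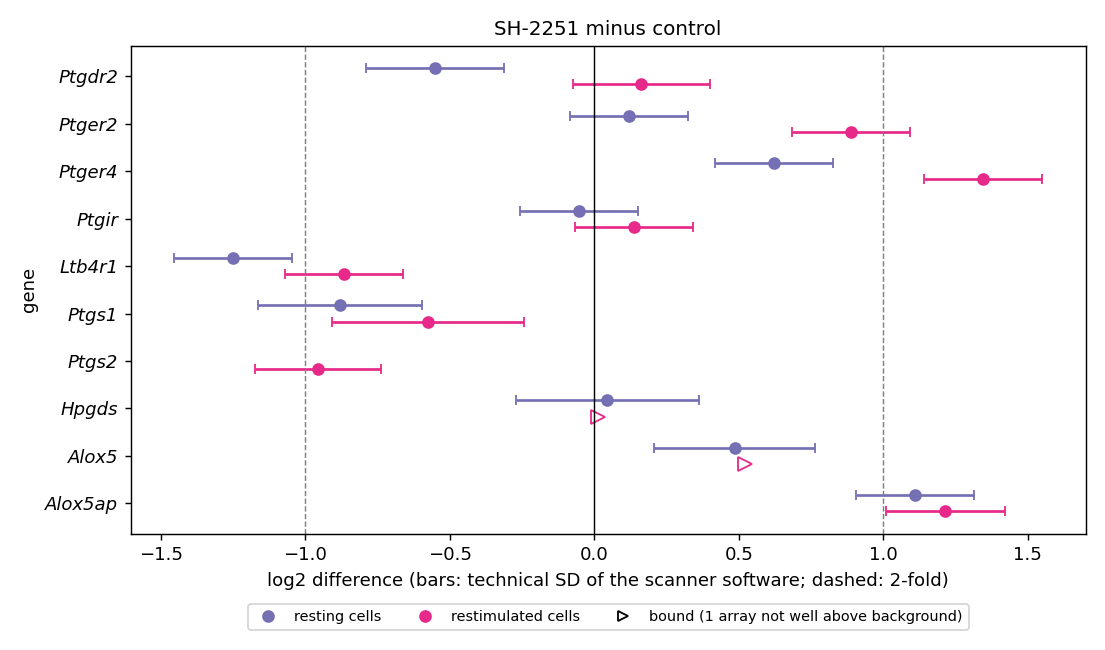
Log2 difference, SH-2251 minus control, of each member in resting (purple) and restimulated (pink) cells. Bars are the technical SD, triangles are bounds where 1 of the 2 arrays was not well above background, and dashed lines mark 2-fold; Alox5ap lies beyond the upper line in both states, at 1.11 and 1.22, Ptger4 in restimulated cells, at 1.35, and Ltb4r1 beyond the lower line in resting cells, at -1.25.

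Alox5ap encodes FLAP, the protein that presents arachidonic acid to 5-lipoxygenase. Its level was -0.32 in resting control, 0.79 in resting SH-2251-treated, -0.94 in restimulated control and 0.27 in restimulated SH-2251-treated cells. Both cultures with SH-2251 were above both controls, and within each treatment the restimulated culture was the lower. The SH-2251 difference was 1.11 in resting cells (2.16-fold, technical SD 0.205) and 1.22 in restimulated cells (2.32-fold, technical SD 0.206), ranks 231 and 206 from the highest. Between the 2 states these differed by 0.11, inside the technical SD of 0.290. Alox5ap was the 1 member at least 2-fold apart with SH-2251 in both states, although the resting difference was 0.89 after normexp on all spots and 1.01 without the spots of uneven background.

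Alox5ap is known from myeloid cells and B cells as well, so the markers of those cells are given beside it. The summed signal of the B cell markers, in units of the 75th percentile, was 4.34 in resting control, 4.97 in resting SH-2251-treated, 3.58 in restimulated control and 5.52 in restimulated SH-2251-treated cells, higher with SH-2251 in both states although Pax5 was not well above background. Ms4a1 and Cd79b were higher with SH-2251 in both states, whereas Cd79a and Cr2 were lower. For the markers of macrophages and monocytes the sums were 2.80, 2.57, 2.98 and 3.13 in the same order. Most of that signal came from Adgre1, at levels of 1.30, 1.20, 1.42 and 1.51. Csf1r and C1qb were lower with SH-2251 in both states, whereas Cd14 was lower in resting and higher in restimulated cells. For the markers of dendritic cells, of which 3 of 5 were well above background, the sums were 0.370, 0.321, 0.474 and 0.674. The dendritic cell markers did not move together. With SH-2251 in restimulated cells Zbtb46 was higher (-1.18 beside -2.71), whereas Flt3 (-4.39 beside -4.28) and Xcr1 (-2.58 beside -2.21) were lower. Markers of CD8 T and NK cells, of which 2 or 3 of 5 were well above background, summed to 0.310, 0.508, 0.342 and 0.586. The part of such cells in the Alox5ap and Ptger4 differences was not tested.

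Alox5, the 5-lipoxygenase itself, had 3 probes and was dim. On the brightest its level was -3.74 in resting control and -3.25 in resting SH-2251-treated cells, not well above background in restimulated control cells, and -4.09 in restimulated SH-2251-treated cells. The SH-2251 difference in resting cells was 0.49 (1.40-fold, technical SD 0.278), and ran from 0.20 to 0.98 over the alternative ways of processing. In restimulated cells the bound was at least 1.44-fold higher with SH-2251 (log2 0.52, technical SD 0.403), falling to 0.04 after normexp. A second probe gave 0.78 in resting cells (technical SD 0.304), and the third was well above background on the restimulated SH-2251 array only. Their bounds in restimulated cells were at least 1.06-fold and at least 1.18-fold higher. Restimulation went with a difference of -0.84 in SH-2251-treated cells (technical SD 0.301), and of -1.22 on the second probe. The third probe went the other way there, with a bound of at least 1.18-fold higher (log2 0.24, technical SD 0.560).

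Ptgs2 encodes the inducible cyclooxygenase, which many cells switch on after activation. It was not well above background in resting cells, with or without SH-2251, on either of its 2 probes. On the brighter probe its level was -1.62 in restimulated control and -2.58 in restimulated SH-2251-treated cells. The gene was therefore measured in both restimulated cultures and in neither resting one. Against the dimmest signal above background on the resting arrays, the restimulated level was at least 8.58-fold higher in control cells and at least 4.20-fold higher in SH-2251-treated cells. After normexp the first bound became 1.67 on the log2 scale with or without the spots of uneven background, whereas the second became 0.00 on all spots and 1.17 without those spots.

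Among the restimulated cells Ptgs2 was 1.94-fold lower with SH-2251 (log2 difference -0.96, technical SD 0.219), just short of 2-fold. The second probe, spotted 10 times on each array, had levels of -2.39 in restimulated control and -3.01 in restimulated SH-2251-treated cells, with an SD between its spots of 0.0439 and 0.0748. Its difference was -0.62, or 1.53-fold lower. Both probes were lower with SH-2251, by different amounts.

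Ptgs1, the constitutive cyclooxygenase, was dim but well above background throughout. Its level was -3.03 in resting control, -3.91 in resting SH-2251-treated, -3.69 in restimulated control and -4.27 in restimulated SH-2251-treated cells. The level was lower with SH-2251 in either state, by 1.84-fold in resting cells (-0.88, technical SD 0.283) and by 1.49-fold in restimulated cells (-0.58, technical SD 0.331), and lower with restimulation, the difference being -0.66 without and -0.35 with SH-2251. None reached 2-fold, and the resting SH-2251 difference turned to 0.48 with normexp on all spots and was -0.44 with normexp without the spots of uneven background.

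Hpgds encodes the haematopoietic prostaglandin D synthase, found in Th2 cells, mast cells and antigen-presenting cells. Its level was -3.89 in resting control and -3.85 in resting SH-2251-treated cells, not well above background in restimulated control cells, and -4.64 in restimulated SH-2251-treated cells. With SH-2251 the resting difference was 0.05, inside the technical SD of 0.317, but it ran from -0.13 to 0.80 over the alternative ways of processing. Restimulation went with a difference of -0.79 in SH-2251-treated cells (technical SD 0.391). Of the 9 mast cell and basophil markers measured, 2 or 3 were well above background on an array, and their summed signal was between 0.424 and 0.529 units. The part of such cells in the Hpgds, Ptgs1 and Alox5 levels was not tested.

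With restimulation, 3 of the 10 members were at least 2-fold apart in control cells, Ptger2 and Ptgs2 higher and Ltb4r1 lower, beside 14.5% of 12757 genes (7.20% higher and 7.34% lower). In SH-2251-treated cells these were 2 of 10 (20.0%), Ptger2 and Ptgs2, beside 14.1% of 12613 genes (7.09% higher and 6.98% lower). The median difference over the members was -0.60 without and -0.10 with SH-2251, beside -0.06 and -0.05 over all genes. Of the 10 members, 7 were lower after restimulation in control cells and 5 in SH-2251-treated cells. The share of all genes that were lower was not counted, so this is a description. The 2 comparisons share no array with each other, but each shares its arrays with the SH-2251 comparisons.

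**Figure D3:**
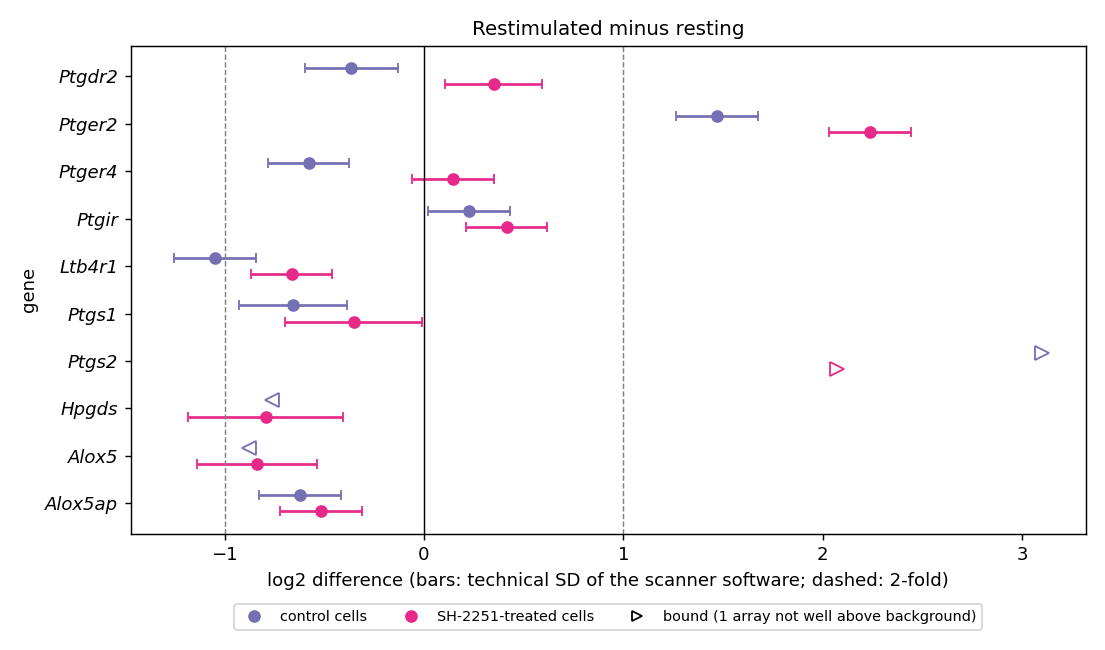
Log2 difference, restimulated minus resting, of each member in control (purple) and SH-2251-treated (pink) cells. Bars are the technical SD, triangles are bounds where 1 of the 2 arrays was not well above background, and dashed lines mark 2-fold; Ptger2 lies at 1.47 and 2.24, the triangles for Ptgs2 at bounds of 8.58-fold and 4.20-fold, and Ltb4r1 at -1.05 and -0.66.

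The rest of the pathway was counted from a list of 52 genes, of which 49 had a probe. Of these, 27 were well above background on all 4 arrays and 15 on none. The latter included Ltc4s, which makes leukotriene C4, Hpgd, which breaks prostaglandins down, and Slco2a1, which takes them up. The differences with SH-2251 are plotted by role. In resting cells 3 of 30 genes compared (10.0%) were at least 2-fold apart, Ptgr1 higher and Alox8 and Cysltr2 lower, beside 5.12% of all genes. In restimulated cells these were 3 of 33 (9.09%), Ggt5 and Ptgr1 higher and Alox8 lower, beside 5.43% of all genes. In resting cells SH-2251 went with 12 differences below 0 and 3 above it by more than the technical SD, and 15 inside it. In restimulated cells these numbered 12, 5 and 16. Differences past the technical SD were not counted over all genes, so these counts describe the list alone. The medians over the compared genes of the list were -0.16 and -0.23, beside -0.06 over all genes in each state.

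**Figure D4:**
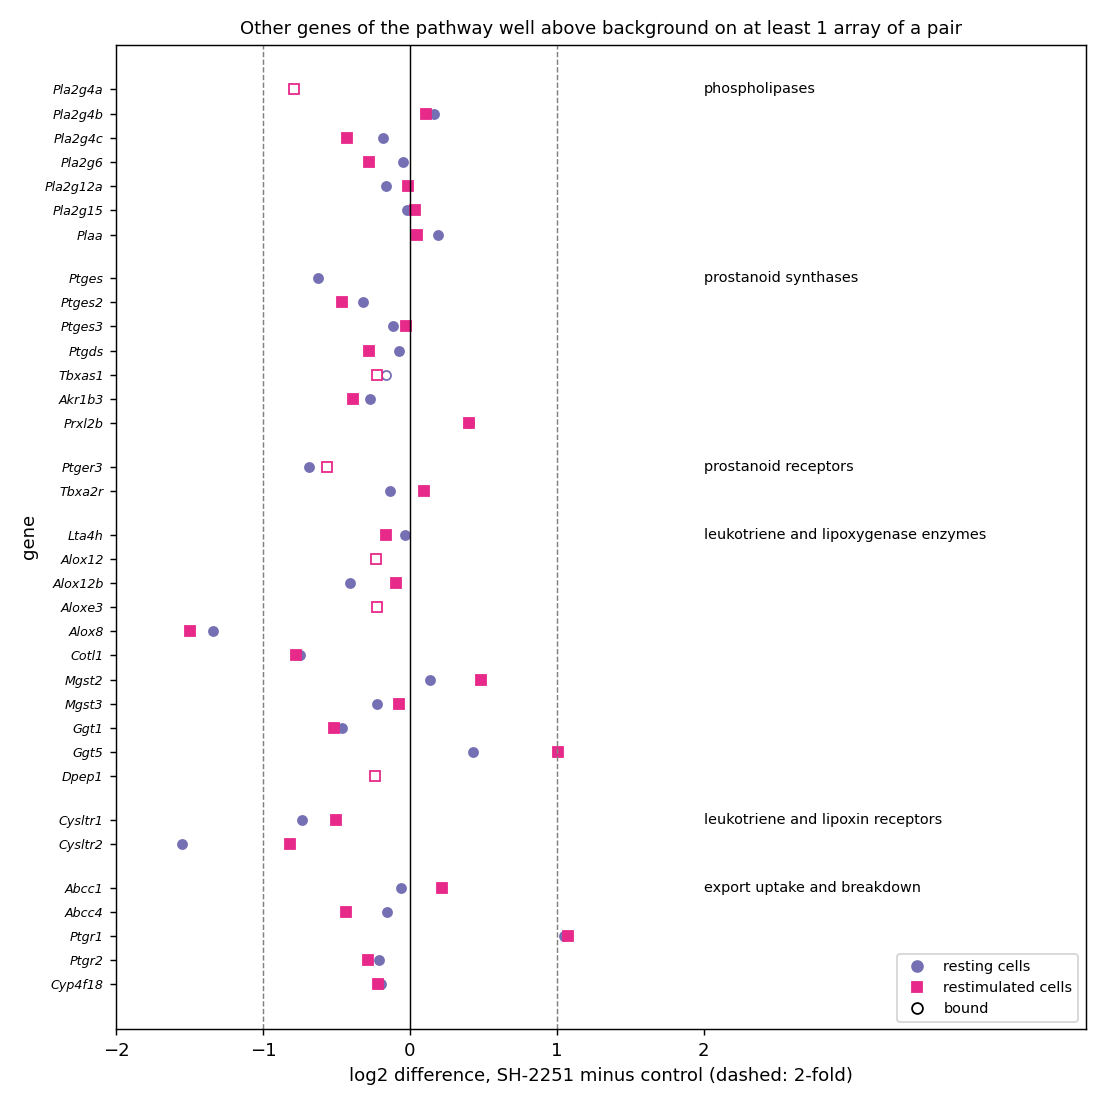
Log2 difference, SH-2251 minus control, of other genes of the pathway in resting (purple circles) and restimulated (pink squares) cells, grouped by role, with open symbols for bounds and dashed lines at 2-fold. Ptgr1 lies near 1 in both states, at 1.05 and 1.08, Alox8 beyond the lower line in both, at 2.53-fold and 2.82-fold lower, and Cysltr2 at -1.55 and -0.81.

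Genes around leukotriene B4 can be read beside Ltb4r1 and Alox5ap. Lta4h, the hydrolase that makes this lipid, had levels of 1.94 in resting control, 1.91 in resting SH-2251-treated, 1.47 in restimulated control and 1.30 in restimulated SH-2251-treated cells, with SH-2251 differences of -0.03 and -0.17 inside the technical SD of 0.204. Ptgr1, a reductase that inactivates leukotriene B4 and prostaglandin metabolites, had levels of 0.93, 1.98, 0.38 and 1.46 in the same order, higher with SH-2251 by 1.05 and 1.08. After normexp these fell short of 2-fold, at 0.74 and 0.96 on all spots and at 0.96 in both states without the spots of uneven background. Cyp4f18, which also breaks leukotriene B4 down, differed by -0.20 and -0.22. With SH-2251 the high-affinity receptor of this lipid was thus lower and 1 of these 2 breakdown genes was higher.

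Both receptors of the cysteinyl leukotrienes were lower with SH-2251. Cysltr1, a target of asthma drugs, was well above background on all 4 arrays and had SH-2251 differences of -0.73 in resting and -0.50 in restimulated cells. Cysltr2 had levels of -0.85 in resting control, -2.40 in resting SH-2251-treated, -0.66 in restimulated control and -1.47 in restimulated SH-2251-treated cells, differences of -1.55 and -0.81. After normexp the first of these was -0.66 on all spots and -1.20 without the spots of uneven background. Ggt5, which turns leukotriene C4 into leukotriene D4, was higher by 0.43 and 1.01, and Alox8, a lipoxygenase that acts on another position of arachidonic acid, was 2.53-fold and 2.82-fold lower. After normexp on all spots and without those of uneven background, the resting difference of Alox8 was -0.31 and -0.93, and the restimulated difference of Ggt5 was 0.61 in both. With the mean of all its probes that Ggt5 difference was 0.80, also short of 2-fold.

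Among the synthases of prostaglandin E2, the ligand of Ptger2 and Ptger4, none was 2-fold apart with SH-2251. Ptges, the inducible synthase, was well above background on the resting arrays only, where it differed by -0.63. Ptges2 differed by -0.32 and -0.46 and Ptges3 by -0.12 and -0.03 in resting and restimulated cells. With restimulation 2 of 34 genes of the list (5.88%) were at least 2-fold apart in control cells, beside 14.5% of all genes, and the same 2 of 29 (6.90%) in SH-2251-treated cells, beside 14.1%. Tbxa2r, the thromboxane receptor, was 5.90-fold and 5.03-fold lower, and Abcc1, a pump that exports leukotriene C4, was higher by 1.34 and 1.62 on the log2 scale.

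For the members well above background on all 4 arrays and at least 2-fold apart in a comparison, the 2 genes most like each in the pattern of its 4 levels were found among 11517 genes, by the Euclidean distance between levels centred on their mean. Nearest to Ltb4r1 were Dusp9 (0.085) and Tle6 (0.122), nearest to Alox5ap were Hba-a1 (0.089) and Rdh10 (0.109), nearest to Ptger4 were Col20a1 (0.061) and Smarca2 (0.172), and nearest to Ptger2 were Niban2 (0.179) and Cd44 (0.261). Tle6 had levels of 1.54 in resting control, 0.32 in resting SH-2251-treated, 0.54 in restimulated control and -0.48 in restimulated SH-2251-treated cells. Hba-a1, a haemoglobin chain with a near-identical copy in the genome, had -1.70, -0.55, -2.26 and -0.98. Such distances over 4 conditions are a description of likeness.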

How the data were processed

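RNA of 4 conditions (500 ng in total from each culture) was hybridised to Agilent whole mouse genome arrays with 1 dye, 1 array per condition. The authors deposited the scanner output of each array, and its processed signal is an intensity that Feature Extraction version 10.7.3.1 (10.7 in the submitters' processing notes) had already corrected for background. A deposited value table holds log2 values that the authors made with the Subio Platform. Its medians were -3.72, -3.78, -3.70 and -3.74 for resting control, resting SH-2251, restimulated control and restimulated SH-2251, and at least 99.6% of its probes lay within 0.01 of a constant shift from the log2 intensities of the same array minus their 75th percentile, which settled its scale, centring and direction. All of its sample columns were used (0 left out).

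Here the log2 intensity minus the 75th percentile of the array was used, without control spots and without spots marked as outliers by the software (77 to 106 per array). Spots of a probe were averaged. Names came from the RefSeq accession of the probe and a RefSeq table (assembly GRCm38.p6, whereas the arrays were designed on mm9): 27198 of 41174 probes (66.1%) matched 18539 genes, and the others stay unnamed here. A gene was read on its probe with the highest mean signal. A comparison took in the genes that stood well above background on either array. For a gene above it on just 1 array the other value was the larger of its own signal and the dimmest signal well above background there, which gives a bound (0 where the bound had the wrong sign). A gene at least 2-fold apart is counted as called.

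With 1 array per condition no test was made across conditions and no SD or p-value is given, and nothing in the sources used here says that conditions had more than 1 culture. The technical SD comes from the software's spot error. The alternatives were other scaling (median, quantile, the authors' log2 values), background correction (limma's normexp with offset 50 on median spot signals, as the columns used hold no mean spot signal, with and without spots of uneven background), outlier spots, filters, probe rules and fold thresholds. The script was tested on simulated data. The members, the pathway and marker lists and the rules for naming genes (all members; listed genes at least 2-fold apart or tied to the lipid of such a member; the 2 nearest patterns) were chosen with earlier results of these data known. Software was limma 3.58.1 in R 4.3.3, and Python 3.11.15 with pandas 2.3.3, numpy 2.4.6 and matplotlib 3.10.9.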

Additional observations from a re-analysis of the deposited data

Results flagged for a closer look

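Ptgdr2 differed in sign between the treatments: restimulated minus resting was -0.36 on the log2 scale in control cells and 0.35 in SH-2251-treated cells, 0.71 apart (technical SD 0.336). With normexp on all spots the value in SH-2251-treated cells was -0.61, the same sign as in control cells, and without spots of uneven background it was 0.11, opposite in sign to the -0.15 in control cells. Each treatment has 1 array per state, so this difference was not tested.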

How the results depend on the processing

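Of the 39 differences of single members, 39 lay within the technical SD of their reported value with median scaling, quantile normalization, the authors' log2 values or outlier spots kept. With normexp 20 did so, 18 moved by more and 1 was set apart as reversed. Among those moved or reversed, the Ptgdr2 and Ptgs1 differences with SH-2251 in resting cells changed sign, as did the Ptgdr2 difference with restimulation in SH-2251-treated cells. In the last of these comparisons the bound for Ptgs2 became 0.00, and Ptgs1 (-1.05), Hpgds (-1.20) and Alox5 (-1.16) passed 2-fold. Members at least 2-fold apart numbered 1 (resting SH-2251) and 4 (restimulation in SH-2251-treated cells) with normexp, and 2 and 2, as reported, with normexp without spots of uneven background. They numbered 1 in the latter comparison when both arrays had to be above background. At 1.5-fold the members numbered 4 and 5 with SH-2251 (resting, restimulated) and 7 and 5 with restimulation (control, SH-2251-treated). At 3-fold they numbered 0, 0, 1 and 2 in these 4 comparisons. Other genes of the pathway numbered 7, 6, 10 and 11 at 1.5-fold in the 4 comparisons and 0, 0, 1 and 2 at 3-fold. The shares of all genes at 1.5-fold and 3-fold were not counted, so these counts describe the lists alone. Without filter or bound the other genes of the pathway numbered 5, 6, 6 and 3 in the 4 comparisons. With normexp they numbered 1 for restimulated SH-2251 and 7 for restimulation in SH-2251-treated cells, with normexp without uneven spots 1 in each of the first 3, and with quantile normalization 4 for restimulation in control cells. With normexp without spots of uneven background (12 on the resting SH-2251 array, 0 to 2 on the others), 28 of the 39 member differences lay within the technical SD, the sign changes named above were absent, the Ptgs2 bound was 1.17, and Ptgs1, Hpgds and Alox5 were short of 2-fold. Tbxa2r had no value in that setting. Over all genes, 694 were at least 2-fold higher and 162 lower with SH-2251 in resting cells with normexp, 122 and 189 without those spots, and 282 and 368 as processed in the report. For restimulation in SH-2251-treated cells 731 of 12610 genes were higher and 1512 lower with normexp. There they were 660 and 443 without those spots, and 894 and 881 as processed in the report. The cause of the other shifts was not tested. Signal over background limits Ptgs1, Ptgs2, Hpgds, Alox5 and Ptgdr2, the dim members. No paired analysis was possible because each condition has 1 array, and leaving out a replicate was not possible for the same reason.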
